A study of Mus musculus with 10 samples.

Results

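Class switching joins DNA breaks in the immunoglobulin heavy chain locus, and 10 genes of the break response and of end joining were followed here in germinal center B cells: H2afx, Atm, Trp53bp1, Rif1, Xrcc5, Xrcc6, Prkdc, Xrcc4, Lig4 and Parp1. They were chosen by symbol for their known part in switching and make up 10 of the 22380 genes quantified. The libraries were RNA-seq of NP-binding germinal center B cells (GL7+IgD-) sorted from mice immunized with the hapten NP coupled to ovalbumin. ZBTB38 WT mice were Zbtb38fl/fl without Cre (2 libraries), ZBTB38 HET mice were Zbtb38fl/+ x Vav-Cre (2 libraries), and ZBTB38 KO mice were Zbtb38fl/fl x Vav-Cre (6 libraries). The strain named for all groups was C57Bl6/N, but the floxed allele was made in C57Bl6/J zygotes and then backcrossed to C57Bl6/N. The extent of backcrossing is not given. Every mouse carried at least 1 floxed allele that descended from a single founder. Vav-Cre acts mainly in blood cells, so the deletion was not limited to B cells or to the germinal center, and no library came from mice with Cre and without a floxed allele. The age of the mice is not given in the sources used here.

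Class switching starts when both DNA strands are opened in switch regions, with base excision and mismatch repair taking part. Phosphorylated histone H2AX and the kinase ATM mark the break, 53BP1 and RIF1 keep its ends from being trimmed, and Ku, the catalytic subunit DNA-PKcs, XRCC4 and DNA ligase IV join them. PARP1 binds breaks as well and serves an alternative way of joining. ZBTB38 is a BTB zinc finger transcription factor that can bind methylated CpG sites, and the question here was whether RNA of these genes differed between genotypes.

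The libraries held 26612431 to 41059082 estimated counts each. Zbtb38 itself was at 162 and 152 CPM (TMM-normalized counts scaled to library size) in WT, 117 and 106 in HET, and 18.6 to 50.3 in KO, with no overlap between the 3 groups, so the labels matched the targeted gene. All 8 germinal center B cell markers were detected in every library, with Bcl6, the transcription factor that sets the germinal center program, at 169 to 294 CPM. KO replicate 6 had the lowest median correlation with the other libraries, 0.887 against 0.916 to 0.938 for the rest. KO replicates 1, 3 and 6 also carried relatively more RNA of genes with short transcripts, which is described with the results it touches.

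The 10 genes lay on 7 chromosomes (Gencode vM21, GRCm38), and 2 of them, Atm and H2afx, lay on chromosome 9 with Zbtb38. Promoter sequences from RefSeq (GRCm38.p6), from 250 bases before to 50 bases after the start, were matched for 7 of the 10 genes, with 8 promoters among them. Prkdc, Rif1 and H2afx were not matched. The 8 promoters held between 9 and 31 CpG sites, against a median of 7 over 32851 promoters of the same length. Xrcc5 had the fewest, and 54.2% of all promoters had fewer than it. Xrcc4 held 31, Xrcc6 30, Lig4 30 and 29, Atm 28, and Parp1 and Trp53bp1 20 each. Xrcc6 varied as little as Xrcc5 over the libraries. Printed next are the promoters of Trp53bp1, the matched gene with the largest differences below, and of Xrcc5, among the steadiest of the 10. Both run 5′ to 3′ on the strand of the gene with CpG in capitals. ZBTB38 binds mainly certain methylated CpG sequences, and which of these CpG are of that kind was not tested. Neither methylation nor binding was measured in these libraries.
Trp53bp1, chr2:121271358-121271657, minus strand, 20 CpG: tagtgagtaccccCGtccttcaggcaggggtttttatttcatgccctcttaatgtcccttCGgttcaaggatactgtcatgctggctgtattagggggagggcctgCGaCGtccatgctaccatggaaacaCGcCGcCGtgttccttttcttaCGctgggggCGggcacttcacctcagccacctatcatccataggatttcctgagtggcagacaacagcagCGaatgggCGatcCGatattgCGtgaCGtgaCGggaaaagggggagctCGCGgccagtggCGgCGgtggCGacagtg
Xrcc5, chr1:72307171-72307470, plus strand, 9 CpG: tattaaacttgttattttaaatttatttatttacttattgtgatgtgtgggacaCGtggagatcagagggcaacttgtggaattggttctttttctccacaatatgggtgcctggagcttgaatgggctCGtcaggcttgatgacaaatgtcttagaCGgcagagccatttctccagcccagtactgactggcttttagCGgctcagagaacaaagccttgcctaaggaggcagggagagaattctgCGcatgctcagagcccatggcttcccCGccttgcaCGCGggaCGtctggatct
Letters were searched on both strands. The promoter of Trp53bp1 held GGGCGG, as did 35.7% of all promoters. That of Xrcc5 held CCAAT, as did 37.4%, and CACGTG, as did 7.15%. CCAAT of Xrcc5 lies on the strand not printed and reads ATTGG above. These matches describe the letters only.

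Per transcript length, the 10 genes spanned a wide range of levels, given here in TPM, counts per transcript length scaled to the same total in each library and summed over the transcripts of a gene, as mean ± SD over all 10 libraries. H2afx, which encodes the histone variant H2AX, was highest at 564 ± 75.5 TPM, and Parp1 followed at 235 ± 61.6 TPM. Xrcc6, which encodes Ku70, stood at 81.0 ± 9.35 TPM. The ranges of these 3 genes did not overlap. Rif1 was at 66.1 ± 19.6 TPM, Xrcc5, which encodes Ku80, at 27.3 ± 3.46 TPM and Trp53bp1, which encodes 53BP1, at 19.7 ± 8.17 TPM. Xrcc4, the partner of the ligase, was at 13.4 ± 4.15 TPM and Lig4, the ligase itself, at 10.1 ± 3.74 TPM. The 2 large kinases were lowest, Atm at 5.00 ± 1.22 TPM and Prkdc, which encodes DNA-PKcs, at 5.00 ± 1.95 TPM. From Xrcc6 downwards the ranges of neighbours in this order overlapped. Among 17514 genes with any TPM, the 10 lay between percentile 49.5 for Prkdc and Atm and percentile 98.4 for H2afx.

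**Figure D1:**
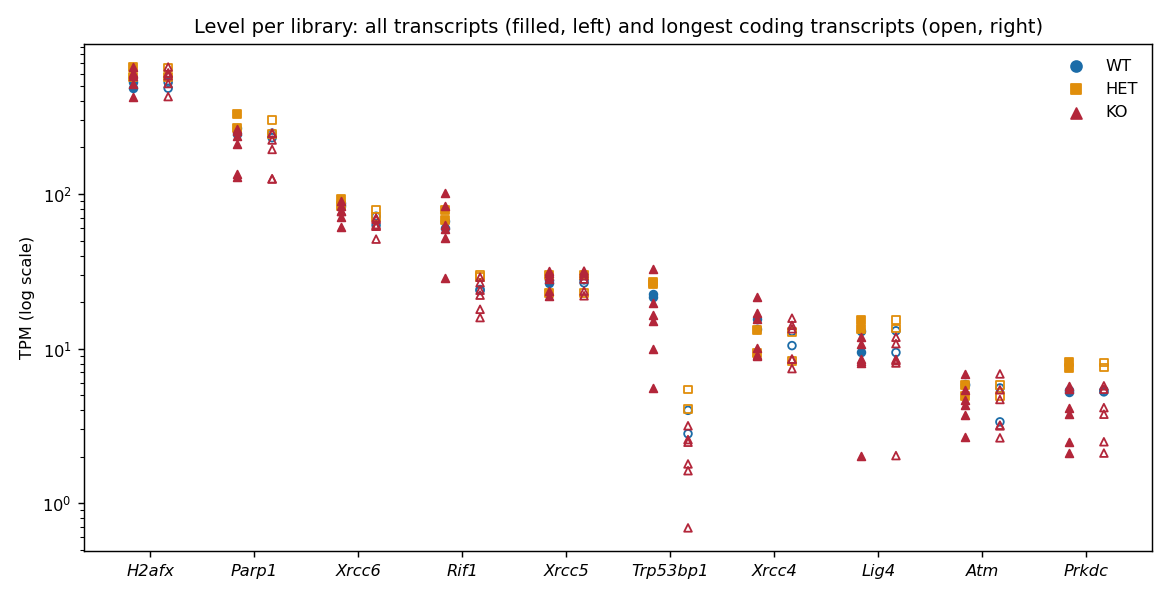
Level of each gene in TPM on a log axis, with 1 symbol per library (circles WT, squares HET, triangles KO). Filled symbols on the left sum all transcripts of the gene and open symbols on the right take only transcripts with the longest coding sequence, for which Rif1 averaged 24.2 and Trp53bp1 2.86 TPM.

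Part of this order came from short transcripts. In Rif1, whose protein acts with 53BP1 at break ends, a transcript of 304 bases annotated for nonsense-mediated decay (chr2:52073072-52077005, 3 exons) held 60.4% of the TPM of the gene but 1.97% of its estimated counts. Of its 304 bases, 239 also lie in the transcript with the longest coding sequence. That full transcript held 97.1% of the counts and 38.6% of the TPM. In Trp53bp1, 8 transcripts were quantified, and the one with the longest coding sequence held 39.9% of the counts and 16.4% of the TPM. Counting only the longest coding transcripts, Rif1 fell behind Xrcc5 to 24.2 ± 4.69 TPM and Trp53bp1 became the lowest of the 10 at 2.86 ± 1.37 TPM. Xrcc5, Prkdc and H2afx had 1 quantified transcript each, and both transcripts of Lig4 carry the whole coding sequence, so their levels were the same on both scales. The order of H2afx, Parp1 and Xrcc6 was the same on both scales.

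None of the 10 genes passed an adjusted p of 0.1 in edgeR's quasi-likelihood test in any of the 4 comparisons. In each comparison 1 gene of the whole table passed, which is 0.00704% of 14203 genes for WT against KO, 0.00749% of 13347 for WT plus HET against KO, and 0.00697% of 14354 for HET against KO and for WT against HET. That gene was Zbtb38 in the first 2 comparisons (log2 fold change -2.31, adjusted p = 0.0734, and -2.08, adjusted p = 0.0104, edgeR). In the other 2 it was Hnrnpll, a splicing factor gene named only because it was the single call. Its level was low in HET against both other genotypes. The log2 fold change was 9.67 in KO over HET (adjusted p = 0.0496, edgeR) and -10.3 in HET over WT (adjusted p = 0.0395, edgeR). In KO against WT, at an unadjusted p under 0.05, 0 of the 10 passed, where 2.19% of all genes did. In KO against WT plus HET, 2 of the 10 passed, both lower in KO, where 4.05% of all genes passed as lower. In KO against HET the same 2 genes passed, Trp53bp1 and Prkdc, both lower in KO, where 5.46% of all genes passed as lower. In HET against WT 0 of the 10 passed, where 6.42% of all genes did. The comparisons share libraries, so they are not independent. RNA came from pools of cells, and fewer cells of a kind and less RNA per cell cannot be told apart.

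**Figure D2:**
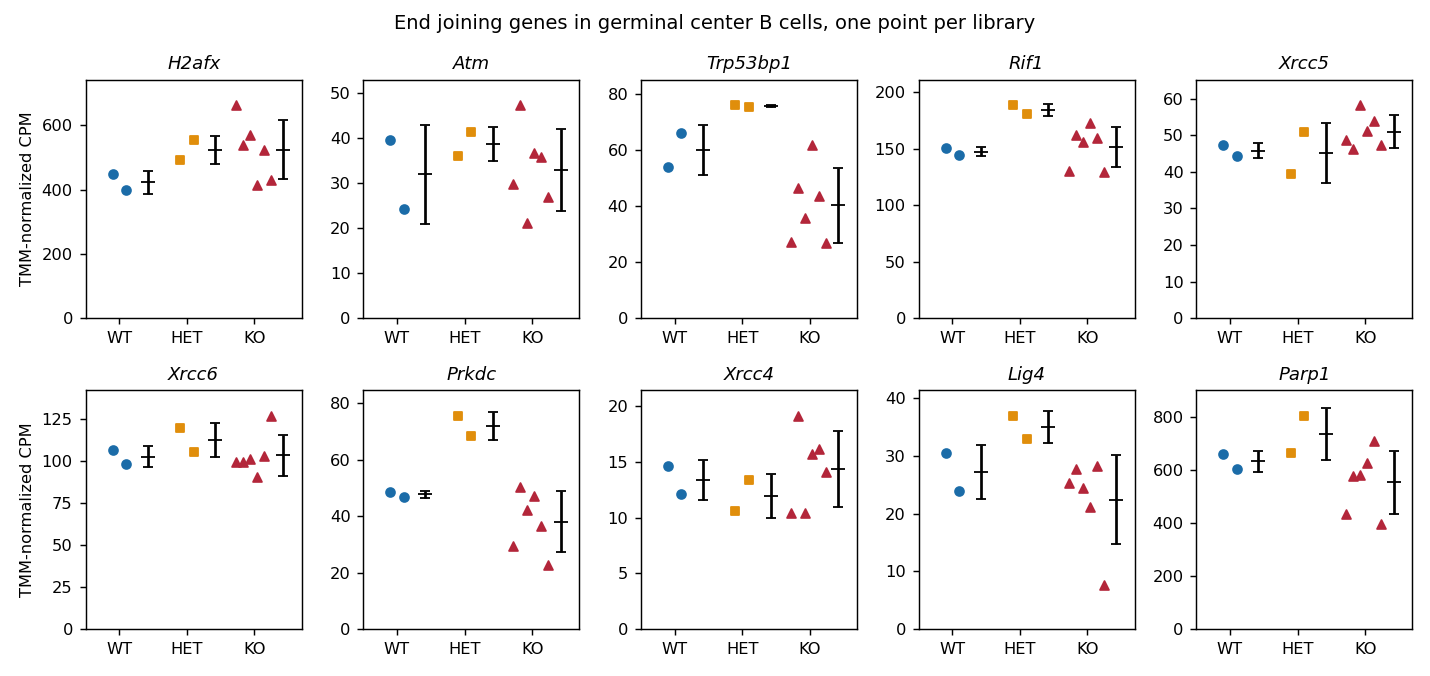
TMM-normalized CPM of the 10 genes on linear axes from 0, with 1 symbol per library grouped by genotype and the mean ± SD beside each group (n = 2, 2 and 6). All KO values of Trp53bp1, Prkdc, Lig4 and Rif1 lie below both HET values, and every gene overlaps between WT and KO.

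Neither of the genes that sense and mark the break passed the test. H2afx was at 448 and 398 CPM in WT, 491 and 554 CPM in HET, and 415 to 662 CPM in KO with a median of 531. WT replicate 2 lay below every other library, and HET lay within the KO range. Its log2 fold change in KO over WT was 0.31 (95% interval -0.10 to 0.71, adjusted p = 0.999, edgeR), and in KO over HET it was 0.00 (95% interval -0.37 to 0.37). Atm, the kinase that starts the signal, was at 39.7 and 24.2 CPM in WT, 36.1 and 41.3 CPM in HET, and 21.2 to 47.3 CPM in KO with a median of 32.9. Both WT values and both HET values lay inside the KO range. The KO over WT fold of Atm was 0.05 on the log2 scale (95% interval -0.62 to 0.71), wide enough to hold a change of 1.5 times in either direction, and it was -0.27 without WT replicate 2 and 0.45 without WT replicate 1.

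Trp53bp1 (chr2:121193281-121271407) gave the largest difference of the 10 between KO and WT. It was at 53.8 and 66.3 CPM in WT, 76.0 and 75.4 CPM in HET, and 26.8 to 61.9 CPM in KO with a median of 39.6. All 6 KO libraries were below both HET libraries, 5 of 6 were below both WT libraries, and KO replicate 4 lay between the WT values. The log2 fold change was -0.58 in KO over WT (SE 0.296, 95% interval -1.23 to 0.08, adjusted p = 0.999, edgeR). Against WT plus HET it was -0.75 (SE 0.224, 95% interval -1.24 to -0.27, adjusted p = 0.744, edgeR), and against HET it was -0.91 (SE 0.274, adjusted p = 0.365, edgeR). The differences from WT plus HET and from HET had an unadjusted p under 0.05. The 3 folds are 0.67, 0.59 and 0.53 times the level of the respective controls, and none passed after adjustment. With DESeq2, as used in the study, the KO over HET difference of Trp53bp1 had an adjusted p of 0.0754. In that fit 458 of the 14354 genes left by the filter passed 0.1. The gene overlaps Tubgcp4 on the opposite strand over 2130 of its 14164 exonic bases, and reads that lie within this overlap cannot be assigned by strand.

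Rif1 was steadier. It was at 151 and 145 CPM in WT, 189 and 181 CPM in HET, and 129 to 173 CPM in KO with a median of 158. WT lay within the KO range and HET above it. The log2 fold change was 0.04 in KO over WT (95% interval -0.29 to 0.37) and -0.29 in KO over HET (95% interval -0.58 to 0.01, adjusted p = 0.507, edgeR). The 2 partners were also compared as a ratio of TPM within each library. Rif1 to Trp53bp1 was 2.82 ± 0.284 in the 4 controls and 4.30 ± 1.09 in the 6 KO libraries, a difference of 0.57 in mean log2 ratio (exact permutation test, two-sided, p = 0.0429, adjusted over 6 ratio tests 0.257). The KO ratio ranged from 2.53 to 5.25, and 1 of the 6, KO replicate 4, fell within the control range of 2.50 to 3.10. With only the transcripts of the longest coding sequence, which leave out the 304-base transcript of Rif1, the ratio was 5.37 to 8.58 in the controls and 6.97 to 22.9 in KO, and KO replicate 6 was the library within the control range (exact permutation test, two-sided, p = 0.0333, adjusted over 6 ratio tests 0.2). Against WT alone, with all transcripts, the exact p was 0.214, where the smallest that 2 against 6 libraries can give is 0.0357.

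The genes of the Ku subunits varied least of the 10 over the libraries. Xrcc5 (chr1:72307421-72394952) was at 47.3 and 44.3 CPM in WT, 39.5 and 51.0 CPM in HET, and 46.2 to 58.2 CPM in KO with a median of 49.9. Xrcc6 was at 107 and 98.1 CPM in WT, 120 and 105 CPM in HET, and 90.3 to 127 CPM in KO with a median of 101. Groups overlapped for both genes in the 4 comparisons. The KO over WT interval ran from -0.19 to 0.50 on the log2 scale for Xrcc5 and from -0.32 to 0.34 for Xrcc6, so a change of either gene beyond 1.41-fold lay outside its interval. Ku works as a dimer of both subunits, and the ratio of Xrcc6 to Xrcc5 in TPM was 3.16 ± 0.184 in WT, 3.44 on average in HET and 2.83 ± 0.531 in KO (WT against KO, exact permutation test, two-sided, p = 0.429). Xrcc6 overlaps Desi1 on the opposite strand over 344 exonic bases.

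Prkdc (chr16:15637866-15842235), whose product is recruited by Ku, had Trp53bp1 as the closest pattern among the 10. It was at 48.7 and 46.8 CPM in WT, 75.6 and 68.4 CPM in HET, and 22.5 to 50.4 CPM in KO with a median of 39.5. HET lay above both other groups, while WT fell inside the KO range, with 4 of 6 KO libraries below both WT libraries. The log2 fold change was -0.33 in KO over WT (95% interval -0.94 to 0.29, adjusted p = 0.999, edgeR). It was -0.65 against WT plus HET (SE 0.226, adjusted p = 0.744, edgeR) and -0.92 against HET (SE 0.252, adjusted p = 0.322, edgeR). HET over WT was 0.59 (95% interval -0.12 to 1.30, adjusted p = 0.808, edgeR). The differences from WT plus HET and from HET had an unadjusted p under 0.05, but without HET replicate 1 the former no longer did, at a log2 fold change of -0.52. With DESeq2 the KO over HET difference of Prkdc had an adjusted p of 0.0467.

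Neither gene of the ligase complex passed the test. Xrcc4 was at 14.7 and 12.1 CPM in WT, 10.6 and 13.4 CPM in HET, and 10.4 to 19.1 CPM in KO with a median of 14.9. Its groups overlapped in the 4 comparisons, and its log2 fold change in KO over WT was 0.10 (95% interval -0.57 to 0.76). Lig4 was at 30.5 and 23.9 CPM in WT, 36.9 and 33.0 CPM in HET, and 7.60 to 28.2 CPM in KO with a median of 24.9. The low value belonged to KO replicate 6, and the other 5 KO libraries lay between 21.1 and 28.2 CPM, all below HET. The log2 fold change of Lig4 was -0.28 in KO over WT (95% interval -1.15 to 0.59) and -0.47 against WT plus HET (adjusted p = 0.745, edgeR), and the latter was -0.30 without KO replicate 6. Lig4 to Xrcc4 in TPM was 1.05 ± 0.414 in the controls and 0.627 ± 0.271 in KO (exact permutation test, two-sided, p = 0.105).

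Parp1 (chr1:180568924-180601254) was at 662 and 606 CPM in WT, 666 and 805 CPM in HET, and 395 to 710 CPM in KO with a median of 579. WT lay within the KO range, and HET replicate 1 did so as well. The log2 fold change was -0.19 in KO over WT (95% interval -0.65 to 0.26), -0.30 against WT plus HET (adjusted p = 0.744, edgeR) and -0.41 against HET (adjusted p = 0.512, edgeR).

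**Figure D3:**
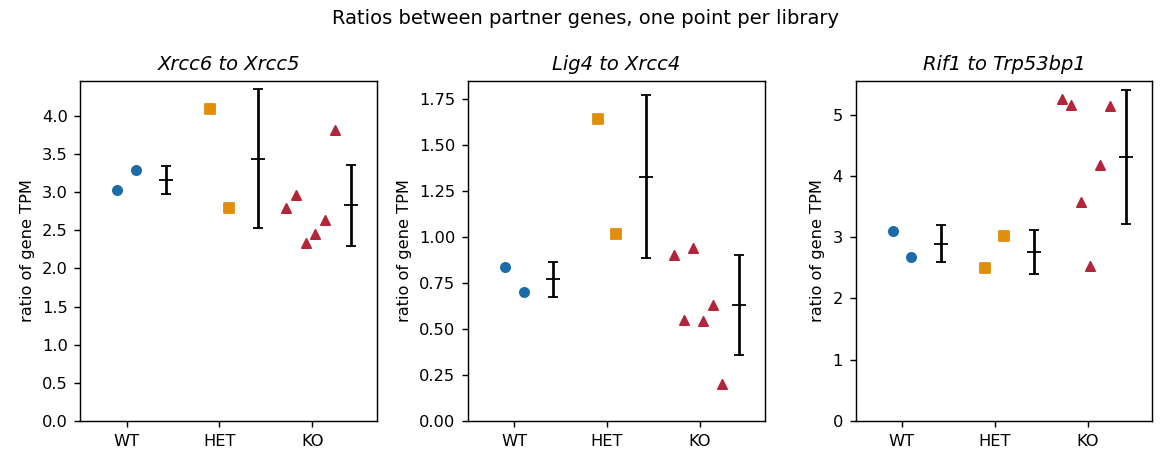
Ratio of gene TPM between partner genes in each library, on axes from 0, with the mean ± SD beside each genotype (n = 2, 2 and 6). Xrcc6 to Xrcc5 overlaps between genotypes, while 5 of 6 KO libraries exceed all controls for Rif1 to Trp53bp1.

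**Figure D4:**
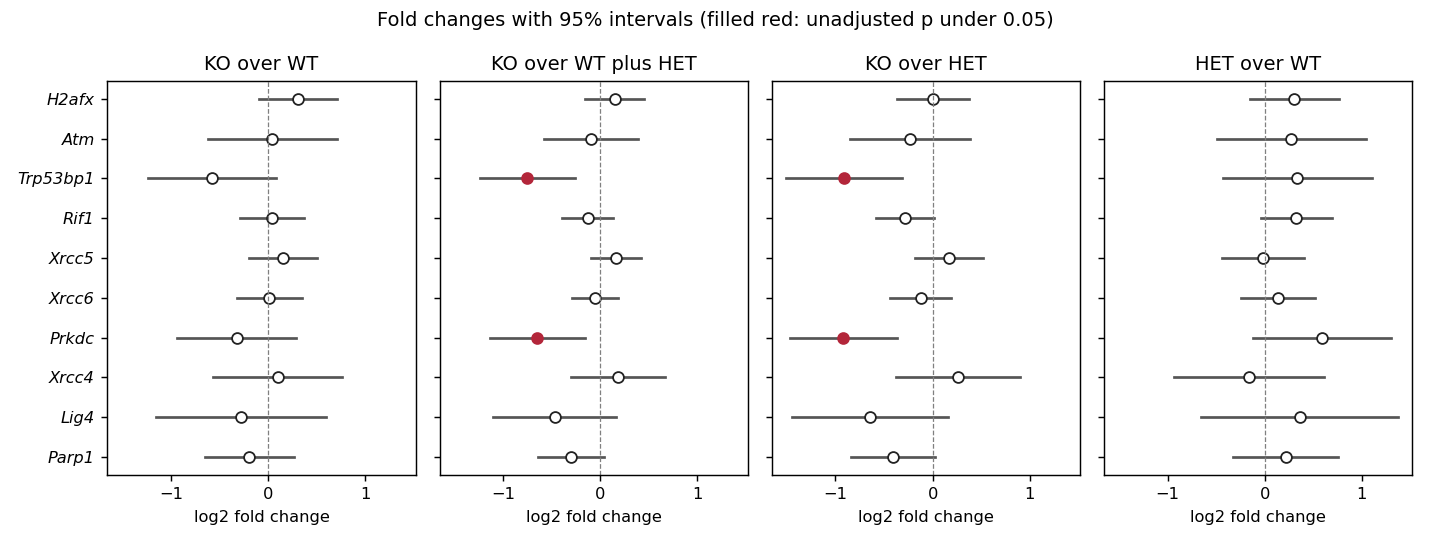
Log2 fold changes of the 10 genes with 95% intervals from edgeR in the 4 comparisons, with the dashed line at no difference. Only Trp53bp1 and Prkdc, in KO over WT plus HET and in KO over HET, are filled for an unadjusted p under 0.05, and no gene passed an adjusted p of 0.1.

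Over the 10 genes the median log2 fold change was 0.03 in KO over WT, against 0.01 over all genes, with 4 of the 10 and 48.2% of all genes lower. It was -0.11 against WT plus HET, where all genes had 0.02, with 7 of the 10 and 47.2% of all genes lower. Against HET it was -0.26, where all genes had 0.07, with 7 of the 10 and 43.7% of all genes lower. In HET over WT the median was 0.29 against -0.01 over all genes, with 2 of the 10 and 51.1% of all genes lower in HET. In this last comparison the groups did not overlap for 6 of the 10, all higher in HET, where 23.5% of all genes did so. In KO over HET they did not overlap for 4 of the 10, all lower in KO (Trp53bp1, Prkdc, Lig4 and Rif1), where 8.12% of all genes did so. Only 2 HET libraries underlie both counts. Groups did not overlap for 0 of the 10 in KO against WT and in KO against WT plus HET, where 6.58% and 1.51% of all genes did not.

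Markers of other cell types and of proliferation were summed as well. Those of the naive B cell and erythroid markers were lower in both HET libraries than in every WT and KO library. The sums themselves were not tested. In KO over HET, 5 of 6 naive B cell and 3 of 6 erythroid markers were higher at an unadjusted p under 0.05 (edgeR). By class of transcript length, 1.95% to 9.75% of all genes did so. In HET over WT, 4 of 6 and 3 of 6 were lower at that level, where 6.42% of all genes passed in either direction. None was called. The summed level of 6 naive B cell markers was 387 and 431 CPM in HET, 785 and 862 CPM in WT, and 500 to 1179 CPM in KO. The sum of 6 erythroid markers was 38.8 and 35.5 CPM in HET and 44.8 to 96.5 CPM in the other libraries. The sums of the other marker lists overlapped between HET and KO, that of the proliferation genes only through KO replicate 5. The sum of 6 myeloid markers was 79.3 and 74.3 CPM in HET, 513 and 421 CPM in WT, and 66.9 to 696 CPM in KO. The sum of 7 T cell markers, most of it Lck, was 188 CPM in each HET library, 240 and 242 CPM in WT, and 174 to 255 CPM in KO. The sum of 10 proliferation genes was 5481 and 5580 CPM in HET, 4725 and 4024 CPM in WT, and 4175 to 5499 CPM in KO. The sum of 5 plasma cell markers spanned 1163 to 1744 CPM over all libraries. The erythroid gene Alas2 was at 0 in 2 libraries, and no T cell, myeloid, naive B cell or plasma cell marker was at 0 in all libraries. Among T cell markers Cd3e was at 1.59 to 17.96 CPM and Lck at 126 to 220 CPM. Cd3e averaged 15.8 CPM in WT, 2.90 in HET and 6.33 in KO, while Lck averaged 164, 168 and 164 CPM. Among the others Lyz2 was at 20.9 to 522 CPM, Ighd at 48.0 to 231 CPM, Fcer2a at 208 to 327 CPM, Sdc1 at 1.23 to 29.0 CPM, Xbp1 at 220 to 465 CPM and Jchain at 886 to 1392 CPM. The part of these markers in the differences of Prkdc, Trp53bp1, Rif1 and Lig4 was not tested.

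The 4 genes with the longest transcripts (Prkdc, Trp53bp1, Rif1 and Atm, 8509 to 12647 bases) shared a property with the libraries themselves. In KO replicates 1, 3 and 6, genes with transcripts under 1000 bases stood 0.49, 0.18 and 0.28 above their mean over libraries (median log2 deviation), and genes of 8000 bases or more stood at -0.29, -0.10 and -0.21. For the longest genes KO replicate 5 was at -0.16, and KO replicates 2 and 4 went the other way, at 0.35 and 0.16. In KO over WT plus HET, 9.16% of genes of 8000 bases or more and 10.9% of those of 4000 to 8000 bases were lower at an unadjusted p under 0.05, against 0.165% of those under 1000 bases. In KO over HET these shares were 11.5%, 13.4% and 0.300%, in the same order. Genes with long transcripts were thus lower in KO more often than genes with short ones in both comparisons. With each library offset for this relation, Trp53bp1 was at -0.63 and Prkdc at -0.55 in KO over WT plus HET, both with an adjusted p of 0.999 and an unadjusted p under 0.05 in edgeR. With KO replicates 1, 3 and 6 left out, Trp53bp1 was at -0.42 and Prkdc at -0.41 in that comparison, of which Trp53bp1 alone kept an unadjusted p under 0.05 in edgeR. Trp53bp1 in KO over WT was then at -0.25, against -0.58 with all 6 KO libraries. Both alternatives were chosen after seeing the data. With counts scaled by transcript length, Trp53bp1 was at -0.48 and Prkdc at -0.66 against WT plus HET. The unadjusted p of Trp53bp1 in that comparison was above 0.05 with these scaled counts and in both limma fits of TPM, and it was also above 0.05 against HET with the scaled counts. That of Prkdc against WT plus HET was above 0.05 with the replicate number as a block.

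**Figure D5:**
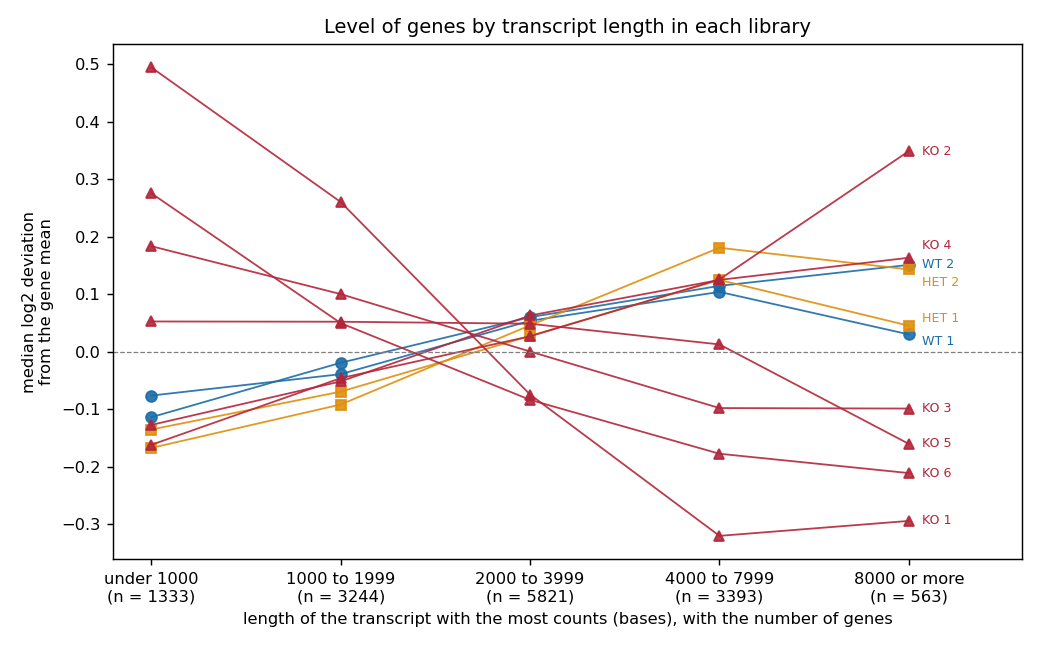
Median log2 deviation of genes from their mean over the 10 libraries, by the length of the transcript with the most counts in 5 classes, with 1 line per library coloured by genotype. KO replicates 1, 3 and 6 start high for transcripts under 1000 bases and end below 0 for those of 8000 bases or more.

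The 10 genes also differed in how much they varied. Over all 10 libraries the coefficient of variation of CPM was highest for Trp53bp1 (35.9%), Prkdc (34.3%) and Lig4 (30.7%), and lowest for Xrcc6 (10.3%), Xrcc5 (10.6%) and Rif1 (12.6%). The median over 8587 genes of at least 10 CPM was 18.8%, so the 10 lay on both sides of it. For each of the 10, the gene with the most similar pattern was taken as the one with the smallest SD of the log2 CPM ratio over the 10 libraries. These were Tox for H2afx (SD 0.064), Tmem39b for Xrcc6 (0.065), Eif3a for Rif1 (0.069), Ddb1 for Parp1 (0.078) and Desi2 for Xrcc5 (0.080). For the more variable genes the nearest pattern was farther away, with Tut1 for Xrcc4 (0.130), Enpp1 for Lig4 (0.132), Zbtb2 for Prkdc (0.132), Numa1 for Trp53bp1 (0.135) and Pcm1 for Atm (0.168). Among the 10 themselves, Prkdc and Trp53bp1 lay at 0.240 and Rif1 and Parp1 at 0.190. These are descriptions over 10 libraries that differ in genotype and in the level of genes by transcript length.

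The other genes of the pathway gave no call at an adjusted p of 0.1 in edgeR in any comparison. Over all genes, 48.2% were lower in KO than in WT with a median of 0.01, and 2.19% had an unadjusted p under 0.05. Of 8 accessory factors of classical end joining, 4 were higher and 4 lower in KO than in WT (median 0.00), and Aplf, which binds the ends together with Ku, was nearest to a difference at 0.55 (SE 0.325, adjusted p = 0.999, edgeR). Among 10 genes of break sensing and chromatin signalling, 6 were higher and the median was 0.10, with Ube2n, a ubiquitin-conjugating enzyme that acts ahead of 53BP1, at 0.28 (SE 0.183). Among 7 effectors downstream of 53BP1, 5 were higher, and Mad2l2, which encodes the shieldin subunit REV7, was at 0.38 (SE 0.216). None of these 3 groups had a member at an unadjusted p under 0.05 in KO against WT.

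Of 9 genes of alternative end joining and resection, 4 were higher and 5 lower in KO than in WT, and Lig3, the ligase of the alternative route, was at -0.36 (SE 0.280). Against WT plus HET, 7 of these 9 were lower with a median of -0.17, where 47.2% of all genes were lower with a median of 0.02. There Brca1, which promotes resection of the ends, was at -0.51 (SE 0.219, adjusted p = 0.744, edgeR). Of 8 genes that start the break, 5 were higher in KO than in WT, and Apex1, an endonuclease of base excision repair, was at 0.34 (SE 0.194). Msh6, of mismatch repair, was at -0.47 against WT plus HET (SE 0.166, adjusted p = 0.744, edgeR) and at -0.68 against HET (SE 0.186, adjusted p = 0.322, edgeR). In KO over HET, 1 of 10 sensing genes, the adaptor Mdc1, was at -0.88 (SE 0.377, adjusted p = 0.465, edgeR). Brca1, Msh6 and Mdc1 are named because they were the members of these lists at an unadjusted p under 0.05, which was seen in the data first. Of all genes, 4.05% passed as lower at that level against WT plus HET and 5.46% against HET.

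Of the marker lists, 8 of 10 proliferation genes were higher in KO than in WT, where 48.2% of all genes were lower. Tyms, of thymidylate synthesis, was at 0.57 (SE 0.165, adjusted p = 0.999, edgeR). Of the germinal center markers 6 of 8 were higher, with Rgs13 at 0.49 (SE 0.293). Of the 7 T cell markers, 3 were lower in KO than in WT at an unadjusted p under 0.05, where 2.19% of all genes passed in either direction. Cd3e was at -1.32 (SE 0.330, adjusted p = 0.999, edgeR). The median of the 7 was -1.32, and Lck, which made up most of their sum, was at 164 CPM on average in both WT and KO. The 6 myeloid markers had a median of -0.71, the 6 naive B cell markers -0.16, the 5 plasma cell markers 0.09 and the 6 erythroid markers 0.97. In KO over HET, 8 of 10 proliferation genes were lower, where 43.7% of all genes were. Of these 8, 2 had an unadjusted p under 0.05 in edgeR, where 5.46% of all genes passed as lower. In HET over WT all 10 were higher, 2 of them at that level. There 5 of 7 T cell and 5 of 6 myeloid markers were lower at that level, where 6.42% of all genes passed in either direction. None of these markers was called in any comparison.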

How the data were processed

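RNA of sorted germinal center B cells from 2 WT, 2 HET and 6 KO mice was made into SMART-Seq v4 libraries, whose kit keeps no strand, and sequenced as paired ends. The authors quantified transcripts with Salmon on Gencode vM17, and the submitters' processing notes name Salmon 0.9.1 and DESeq2 2.11.40.6. The deposited estimated counts per transcript were not normalized, and 46.7% of them lay more than 1e-06 from a whole number. TPM, which accounts for effective transcript length, was deposited by the authors beside them.

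Here counts and TPM were summed per gene, and counts were rounded. Genotypes came from the labels. edgeR 4.0.16 (quasi-likelihood, TMM, filterByExpr) was run on all genes passing the filter, which all 10 genes passed, with Benjamini-Hochberg adjustment at 0.1, the study's threshold. WT against KO and WT plus HET against KO were fitted on their own libraries, and HET against KO and WT against HET in 1 model of the 3 genotypes over all 10 libraries. Ratios of TPM were compared by exact permutation of mean log2 ratios. R 4.3.3, DESeq2 1.42.0, limma 3.58.1, Python 3.11.15, numpy 2.4.6, pandas 2.3.3, scipy 1.17.1 and matplotlib 3.10.9 were used. Scripts were tested on simulated data. Positions are from Gencode vM21, the same build (GRCm38) but another version than the quantification.

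The 10 genes and the gene lists were chosen with earlier results of these data known. Named are the 10 genes, Zbtb38, per list the gene with the smallest p in WT against KO and any called, and per gene its closest pattern. Other names (Brca1, Msh6, Mdc1, Hnrnpll and the markers given with their levels) were chosen after their values were seen. Listed genes not analysed here were Paxx, Kmt5a and Shld1. Alternatives were other size factors, DESeq2, limma on log2 TPM with a pseudocount of 1 or 0.1, length-scaled counts, a stricter filter (10 counts in each library) or none, the replicate number as a block, a threshold of 0.05, other sets of libraries and each library left out. P-values measure the spread between these mice. A count of 0 allows up to 3 counts, for counting error only. Some marker genes are not reported here by name.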

Additional observations from a re-analysis of the deposited data

Results flagged for a closer look

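In 6 of 38 groups of 4 or 6 libraries that were checked, 1 library stood far from the others of its group by Dixon's test, where chance gives about 1.9. For 4 of these the library was KO replicate 6, which also correlated least with the rest. There Xrcc6 was at 126.81 CPM, with the nearest KO library at 103 CPM, and Lig4 was at 7.6008 CPM, with the nearest at 21.1 CPM. In the same library the longest coding transcript held 46.224% of the TPM of Trp53bp1 and 62.7894% of that of Rif1, against at most 12.5% and 37.7% in the other KO libraries. The other 2 involved WT replicate 2 among the controls, in which the longest coding transcripts held 71.7705% of the TPM of Xrcc6 and 57.5315% of that of Atm, while the nearest controls had 84.9% and 94.5%.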

How the results depend on the processing

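None of the 10 genes was called in WT against KO or WT plus HET against KO under any alternative. In HET against KO, DESeq2 called 2 of them, Prkdc and Trp53bp1, among 458 of the 14354 genes left by the filter. In WT against HET, the fit of only the libraries compared, 2 against 2, called 1 of the 10. This was Prkdc (adjusted p = 0.0950, edgeR, against 0.808), among 523 genes called in that fit.

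The number of genes called over the whole table, 1 in each comparison, moved as follows. In WT against KO it was 6 with DESeq2, 6 with the replicate block, 3 with limma on log2(TPM + 0.1), 2 with all 10 libraries, and 0 with counts scaled by transcript length, with limma on log2(TPM + 1), at a threshold of 0.05 and with KO replicates 1, 3 and 6 left out. At an unadjusted p under 0.05 these 4 last fits held 325, 437, 311 and 406 genes. In WT plus HET against KO it was 18 with DESeq2, and 0 with scaled counts, the replicate block, both limma fits and those 3 KO libraries left out, where 838, 1104, 930, 905 and 383 genes had an unadjusted p under 0.05. In HET against KO it was 2 with no filter, 4 with the replicate block, 3 with offsets by transcript length, 17 without the 3 KO libraries and 0 in the fit of only the libraries compared, where 1247 genes had an unadjusted p under 0.05. In WT against HET it was 123 with DESeq2 and 66 with the replicate block. With single libraries left out these counts ranged from 0 to 2, 1 to 2, 0 to 5 and 0 to 16 in the 4 comparisons. The cause of these moves was not tested.

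Same-numbered libraries correlated between -0.02 and 0.10 in their deviations from the group mean. In WT and in HET, with 2 libraries each, these deviations mirror each other. The values therefore cannot show whether same-numbered libraries share more than a number. With the replicate block none of the 10 genes was called.

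None of the log2 fold changes that changed sign was called. In KO over WT, Xrcc6 was at -0.022 with scaled counts, -0.043 with the replicate block, -0.0028 with offsets, -0.17 in both limma fits and -0.073 without the 3 KO libraries. Xrcc4 was at -0.15 and -0.16 in the limma fits, Rif1 at -0.020 with the block and at -0.070 and -0.073 in the limma fits, Atm at -0.24 with scaled counts and at -0.33 and -0.40 in the limma fits, and Parp1 at 0.0090 without the 3 KO libraries. Against WT plus HET, Rif1 was at 0.0036 with scaled counts and 0.030 with offsets, Atm at 0.12 with the block, 0.025 with offsets and 0.18 without the 3 libraries, and H2afx at -0.0076 with offsets. Against HET, H2afx was at -0.0012 with DESeq2 or its size factors, -0.012 with scaled counts, -0.17 with offsets and -0.079 without the 3 libraries, where Atm was at 0.054. In HET over WT, Xrcc5 was at 0.011 with offsets and Atm at -0.11 with scaled counts. With single libraries left out, KO over WT ranged from -0.054 to 0.075 for Xrcc6, -0.034 to 0.24 for Xrcc4, -0.0019 to 0.082 for Rif1 and -0.27 to 0.45 for Atm. Against WT plus HET the range was -0.13 to 4.3e-05 for Xrcc6 and -0.24 to 0.013 for Atm. Against HET it was -0.0055 to 0.37 for Xrcc5 and -0.085 to 0.090 for H2afx. In HET over WT it was -0.21 to 0.16 for Xrcc5, -0.34 to 0.00023 for Xrcc4 and -0.037 to 0.68 for Atm. Trp53bp1, Prkdc and Lig4 were lower in KO under each alternative and each library left out in the 3 comparisons with KO. The 6 ratio tests passed 0.05 after adjustment under none. Each of the 10 genes had at least 253 estimated counts in every library.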
